A study of Mus musculus with 22 samples.

Results

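Open chromatin around 6 immediate early genes, Nr4a1, Btg2, Egr1, Ier2, Atf3 and Sik1, was examined in retinal endothelial cells of mouse pups. Control and gTKO pups both lacked the sphingosine 1-phosphate receptor gene S1pr3. Only the gTKO pups carried a recombinase to delete their floxed S1pr1 and S1pr2 genes. A region was taken as a member where its midpoint lay in a fixed mm9 window around the gene. The windows ran on chromosome 15 from 101.05 to 101.15 Mb for Nr4a1, on chromosome 1 from 135.92 to 136.02 Mb for Btg2 and from 192.92 to 193.10 Mb for Atf3, on chromosome 18 from 34.96 to 35.08 Mb for Egr1, on chromosome 8 from 87.13 to 87.24 Mb for Ier2, and on chromosome 17 from 31.92 to 32.05 Mb for Sik1. The members were 201 of the 57267 control regions and 118 of the 49558 gTKO regions on chromosomes 1 to 19, X and Y. Regions are accessible stretches that ATAC-seq, which cuts open DNA with a transposase, marks as peaks.

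Both groups were pups on a C57BL/6 background at postnatal day 6. Control pups lacked S1pr3 and carried S1pr1flox/flox and S1pr2flox/flox alleles. The gTKO pups had the same alleles and in addition Rosa26-CreERT2, a tamoxifen-activated recombinase whose promoter is active in most cell types and is not restricted to endothelium. Both received 100 µg tamoxifen from postnatal day 1 to 3, so the absence of S1pr3 and the tamoxifen are common to both groups. Each of the 3 control and 3 gTKO libraries came from sorted endothelial cells of the retinas of 4 to 6 pups, which were pooled. The labels also call the cells adult, in conflict with the stated age. The authors deposited 1 peak list per genotype, which all 3 libraries of that genotype share. There is therefore no replicate error for any value below and no p-value, and the depth of sequencing is not known. A list from fewer reads or with weaker signal holds fewer and narrower regions. The whole gTKO list covered 0.771 times the bases of the control list, and each value at the 6 loci is to be read against that figure.

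Immediate early genes are switched on within minutes of a stimulus, from transcription factors already present in the cell and without new protein synthesis. Serum response factor at CArG boxes, and CREB at cyclic AMP response elements (CRE), are classical activators of this set. Nr4a1 encodes an orphan nuclear receptor and Egr1 a zinc finger transcription factor. Atf3 encodes a basic leucine zipper factor of the ATF/CREB family, which can pair with Jun proteins although it is not itself a Fos or Jun gene. Btg2 encodes an antiproliferative protein that recruits the CCR4-NOT deadenylase, Ier2 a small nuclear protein, and Sik1 a kinase that holds the CREB coactivators of the CRTC family in the cytoplasm. In endothelium these genes respond to growth factors, shear stress and ligands of G protein-coupled receptors.

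The upstream sequences of 3 of these genes are shown because these 3 of the 6 matched the promoter table. All 3 hold a CRE core. The sequences are the 250 bases before the annotated start in RefSeq, build GRCm38.p6, written from 5′ to 3′ along the gene. Capitals mark each match to the CRE core TGACG on either strand, and a full CRE, TGACGTCA, where 2 cores overlap.
Nr4a1 (chr15:101266596-101266845, plus strand): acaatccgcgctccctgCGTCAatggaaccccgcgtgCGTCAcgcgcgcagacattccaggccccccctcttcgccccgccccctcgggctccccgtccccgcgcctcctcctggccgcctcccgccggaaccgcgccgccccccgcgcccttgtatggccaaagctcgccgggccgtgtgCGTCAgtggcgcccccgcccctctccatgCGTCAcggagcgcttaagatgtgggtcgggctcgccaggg
Btg2 (chr1:134079156-134079405, minus strand): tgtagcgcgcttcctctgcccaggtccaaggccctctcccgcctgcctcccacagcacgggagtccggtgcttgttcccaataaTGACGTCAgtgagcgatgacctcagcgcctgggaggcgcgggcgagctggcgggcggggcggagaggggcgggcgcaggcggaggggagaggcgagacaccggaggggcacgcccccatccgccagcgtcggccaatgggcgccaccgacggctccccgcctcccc
Atf3 (chr1:191183334-191183583, minus strand): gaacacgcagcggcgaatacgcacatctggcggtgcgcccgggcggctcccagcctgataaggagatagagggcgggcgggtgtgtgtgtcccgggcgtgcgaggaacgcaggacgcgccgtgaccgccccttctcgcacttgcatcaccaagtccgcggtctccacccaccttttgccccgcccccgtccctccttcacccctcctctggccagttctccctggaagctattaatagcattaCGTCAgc

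The 300-base windows searched ran from 250 bases before to 50 after the start. Nr4a1 held 4 CRE cores, whose first bases lay at -233, -213, -69 and -40. Btg2 held a full CRE from -166, made of 2 overlapping cores, and Atf3 held 1 core from -7. All 3 matched windows thus held a core, against 20.8% of the 32851 promoter windows of the table. The full CRE was present in 1.79% of the windows of the table. These windows were not matched to the 3 for G and C content. The AP-1 element TGANTCA was found in none of the 3 windows and in 7.81% of all windows, and the CArG box in none of the 3 and in 1.63% of all. GC boxes (GGGCGG) numbered 3 in Nr4a1, 3 in Btg2 and 5 in Atf3, and 35.7% of all windows held at least 1. The upstream bases were rich in G and C, at 74.4% for Nr4a1, 73.2% for Btg2 and 65.2% for Atf3, against a median of 52.4% over the table. Of 30 other immediate early genes that had been listed, 22 matched 37 windows. Of those 37 windows, 51.4% held the CRE core, 8.11% the full CRE, 16.2% the CArG box and 2.70% the AP-1 element. A GC box was present in 62.2% of them. Several windows can belong to 1 gene. These matches describe letters and not bound sites. The deposited regions are in another build, so whether a region covers these bases was not tested.

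Open chromatin was less extensive in the gTKO list at each of the 6 loci, and the ratio of gTKO to control bases was under the 0.771 of the whole lists at all of them. Together the control regions covered 135473 bp and the gTKO regions 67195 bp, a ratio of 0.496. At Nr4a1 the control regions covered 35760 bp and the gTKO regions 13173 bp, a ratio of 0.368. At Egr1 they covered 14394 and 6278 bp (ratio 0.436). The 3 loci with the lowest ratios, Nr4a1, Egr1 and Btg2, lay below 0.5.

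At Btg2 control regions covered 24091 bp and gTKO regions 11118 bp, a ratio of 0.462. At Sik1 they were 18917 and 9571 bp (ratio 0.506), and at Atf3 22050 and 12543 bp (ratio 0.569). Ier2 differed from the other 5 loci, with 20261 bp of control regions and 14512 bp of gTKO regions, a ratio of 0.716 that lay near the 0.771 of the whole lists. As background, 6.10% of 4182 tiles of 100 kb with at least 5 control regions had gTKO bases at or below 50% of the control bases, with a median ratio of 0.766 (quartiles 0.669 and 0.847). All 6 windows held 22 or more control regions, and among the 192 tiles with at least 20 the share was 18.2% and the median ratio 0.649. Against that denser set, Ier2 lay above the median and the other 5 loci below it. Its quartiles were 0.545 and 0.754, and Atf3 and Ier2 lay between them. The lowest 5% of these denser tiles reached up to 0.297, which was under the ratio of every locus. The windows were 100 to 180 kb long, so the tiles are a guide and not a matched set.

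**Figure D1:**
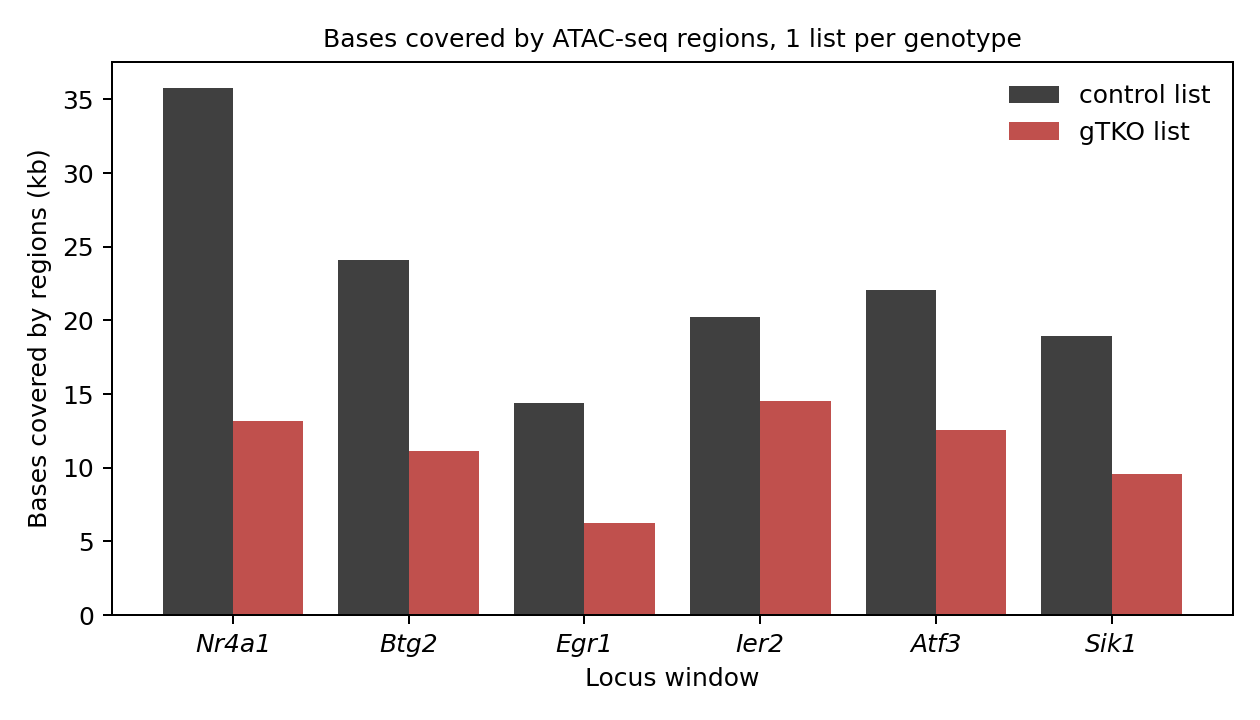
Bases covered by ATAC-seq regions (vertical axis, kb) in the window of each gene (horizontal axis), with 1 dark bar for the control list and 1 red bar for the gTKO list and no error bars, since each genotype has 1 list. The gTKO bar is the lower one at all 6 loci, from 0.368 times the control bar at Nr4a1 to 0.716 times at Ier2.

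The order of the ratios was Nr4a1, Egr1, Btg2, Sik1, Atf3 and Ier2. Over 6 other settings the ratio ranged from 0.333 to 0.406 at Nr4a1, from 0.338 to 0.582 at Egr1, from 0.439 to 0.542 at Btg2, from 0.439 to 0.594 at Sik1 and from 0.510 to 0.635 at Atf3. These ranges overlapped between neighbours, so the order among these 5 depends on the setting. The range at Ier2, from 0.693 to 0.739, lay above all the others. Nearly all gTKO bases lay inside control regions. The shared bases were 97.0% of the gTKO bases and 48.1% of the control bases at the 6 loci, against 92.8% and 71.5% over the placed chromosomes.

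Of the 201 control regions, 105 overlapped no gTKO region, which is 52.2% (exact Clopper-Pearson 95% interval 45.1 to 59.3%, counting error only). Over all placed control regions the share was 27.0%. The control-only regions numbered 28 of 46 at Nr4a1 (60.9%), 25 of 41 at Sik1 (61.0%), 13 of 22 at Egr1 (59.1%), 13 of 26 at Btg2 (50.0%) and 19 of 42 at Atf3 (45.2%). At Ier2 they numbered 7 of 24, or 29.2% (interval 12.6 to 51.1%), which was close to the background share. Few regions belonged to the opposite class under this overlap rule. Of the 118 gTKO regions, 2 overlapped no control region, or 1.69% (interval 0.206 to 5.99%), against 9.75% of all placed gTKO regions. They were a region of 241 bp at Sik1, from 31980864 to 31981104, and a region of 170 bp at Ier2, from 87232757 to 87232926. They lay 77 and 147 bp from the nearest control region. When a partner had to cover, and be covered, to at least 50%, 54 of the 118 gTKO regions (45.8%) lacked one, against 24.6% of all placed gTKO regions, and 137 of the 201 control regions (68.2%), against 34.8%. Under the first rule, any overlap, Nr4a1, Btg2, Egr1 and Atf3 held no gTKO region without a control partner. The counts were 0 of 24, 20, 10 and 24 gTKO regions, which allows shares of up to 12.5, 15, 30.0 and 12.5%.

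The control-only share of the 6 loci pooled was above that of the whole list in each of 4 width classes. Among regions of 150 to 299 bp, 70 of 83 had no partner (84.3%, interval 74.7 to 91.4%), against 52.5% of all placed control regions of that width. Between 300 and 499 bp the numbers were 17 of 40 (42.5%, 27.0 to 59.1%) against 19.1%. Between 500 and 999 bp they were 14 of 42 (33.3%, 19.6 to 49.5%) against 3.65%, and from 1000 bp 4 of 36 (11.1%, 3.11 to 26.1%) against 0.469%. Nr4a1 held 7 of the 14 control-only regions of 500 to 999 bp and 3 of the 4 from 1000 bp. Btg2, Egr1, Ier2 and Sik1 held 0 from 1000 bp. Regions of 1 locus are neighbours and not independent, so these intervals are too narrow for a statement about loci.

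**Figure D2:**
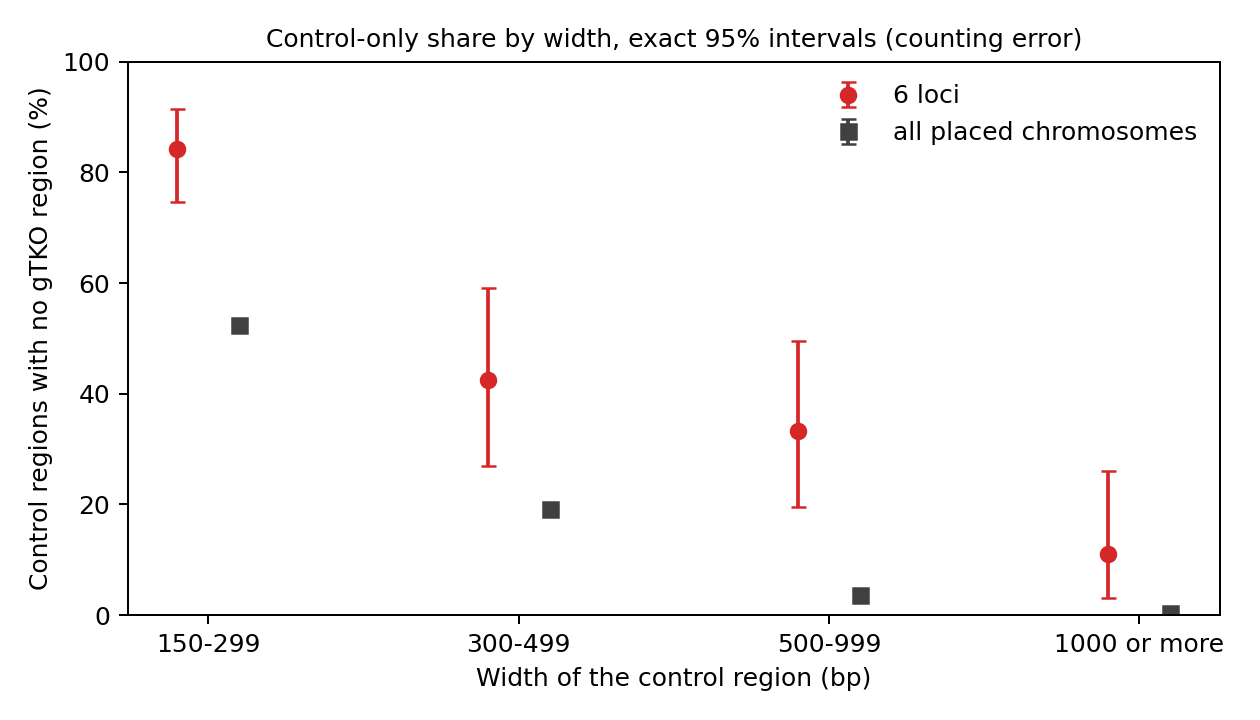
Share of control regions with no overlapping gTKO region (vertical axis, %) in 4 width classes (horizontal axis, bp), for the 6 loci (circles) and all placed chromosomes (squares), with exact 95% intervals for counting error. The circles lie above the squares in each class, at 84.3 against 52.5% for the narrowest and 11.1 against 0.469% for the widest.

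Several wide control regions had no partner, most of them at Nr4a1. Control-only regions of at least 500 bp numbered 18 at the 6 loci, of 515 over the placed chromosomes, and 2.37% of all control regions of that width belong to this class. Nr4a1 held 10 of the 18, and each of the other 5 loci held at least 1. At least 1 kb wide were 4, of 41 over the placed chromosomes (0.469% of control regions of that width). These were the Nr4a1 regions from 101100402 to 101102000 (1599 bp), from 101103800 to 101105114 (1315 bp) and from 101124027 to 101125145 (1119 bp), and the Atf3 region from 192985064 to 192986539 (1476 bp). The nearest gTKO regions were 148, 1701, 375 and 1884 bp away. The widest control-only regions at Btg2 (643 bp), Ier2 (612 bp), Egr1 (592 bp) and Sik1 (579 bp) were narrower.

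At Nr4a1 the regions missing from the gTKO list lay mainly in the middle of the window. The widest control region, from 101105347 to 101110869, spanned 5523 bp and ranked 6th by width among all placed control regions. In the gTKO list 3 regions of 419, 150 and 791 bp lay in it and covered 24.6% of its bases. To its left, the control regions of 1599, 235, 854, 586 and 1315 bp had no partner, and the region of 552 bp kept a gTKO region of 156 bp. Toward the left edge of the window, by contrast, a control region of 1605 bp had a gTKO partner of 1526 bp, which was the widest gTKO region of the locus. A control region of 1253 bp had a partner of 1169 bp. Many control regions on this side still lacked a partner, 9 of 16 (56.2%) between 101052054 and 101077789. Between 101089078 and 101125971 the number was 18 of 27 (66.7%). In all 13 pairs at Nr4a1 that matched 1 to 1, the control region was the wider one, with a median width ratio (gTKO over control) of 0.672. The RefSeq order of protein-coding genes in GRCm38 places Nr4a1 between Grasp and Atg101, and an mm9 annotation was not used here, so a region is not assigned to a gene body or promoter.

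Btg2 showed the same arrangement. The widest control region, from 135966203 to 135971533 (5331 bp, 9th by width), was covered to 17.7% by 4 gTKO regions of 150, 410, 204 and 177 bp. To its left lay control regions of 583 and 209 bp with no partner. Beyond these, the control region of 2030 bp, from 135963115 to 135965144, kept 1 gTKO region of 477 bp, or 23.5% of its bases. Past a further control region of 193 bp with no partner, a control region of 3657 bp was broken into 3 gTKO regions of 1591, 161 and 589 bp, which covered 64.0%. On the other side, a control region of 2192 bp had a partner of 2015 bp and was thus covered to 91.9%. Of 9 pairs matched 1 to 1 at Btg2, the control region was wider in 8, with a median width ratio of 0.614. Btg2 lies between Fmod and Chit1 in the RefSeq order.

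At Egr1 a pair of wide control regions fared differently. The wider, from 35018718 to 35022983 (4266 bp, 26th by width), held a gTKO region of 2690 bp and one of 165 bp, which covered 66.9% of it. That 2690 bp region was the widest gTKO region at any of the 6 loci. The other, from 35024658 to 35027993 (3336 bp), kept 647 bp, or 19.4%. To the right of this region, all 8 control regions between 35028015 and 35034448 lacked a partner, and their widths ran from 163 to 592 bp. Of 8 pairs matched 1 to 1, the control region was wider in 5 and the gTKO region in 3. Egr1 lies between Reep2 and Etf1 in the RefSeq order.

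At Atf3 and Sik1 the gTKO list retained most of the bases of the control regions of at least 2 kb, but not of all narrower ones. Of the control-only regions, 14 of 19 at Atf3 (73.7%) and 19 of 25 at Sik1 (76.0%) were under 300 bp, against 83.0% of all placed control-only regions. The share was 46.4% at Nr4a1 and 69.2 to 76.9% at Btg2, Egr1 and Ier2. At Atf3 the widest control regions were adjacent. The one from 193006105 to 193008275 (2171 bp) was covered to 89.3% and the one from 193008544 to 193010864 (2321 bp) to 69.9%. Of the Atf3 control regions between 1 and 2 kb, the widest, of 1476 bp, had no partner. Those of 1184, 1165 and 1073 bp were covered to 49.6, 92.5 and 87.4%. At Sik1 the widest control region, from 31991531 to 31994152 (2622 bp), was covered to 92.4% by gTKO regions of 1772 and 651 bp. Away from it, a Sik1 control region of 1072 bp, from 31971222 to 31972293, kept a gTKO region of 395 bp (36.8%). Another Sik1 control region, of 1279 bp, was covered to 65.9%. Among pairs matched 1 to 1, the control region was wider in 16 of 19 at Atf3 (median width ratio 0.871) and in 10 of 13 at Sik1 (0.659). At Sik1 some pairs went the other way, such as a control region of 193 bp with a gTKO partner of 412 bp. Atf3 lies between Fam71a and Nenf, and Sik1 between Cryaa and Hsf2bp.

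Ier2 kept most of its open chromatin in the gTKO list. Its widest control region, from 87185011 to 87187654 (2644 bp), was covered to 87.0% by gTKO regions of 2029 and 272 bp. The other control region above 2 kb, from 87179072 to 87181527 (2456 bp), was covered to 73.6%. A control region of 1505 bp at the left of the window had a partner of 1437 bp. In all 12 pairs matched 1 to 1 the control region was wider, with a median width ratio of 0.907. Over the placed chromosomes the control region was wider in 79.5% of 37878 such pairs, with a median ratio of 0.866, so the pairs at Ier2 and Atf3 had ratios near the background. Those at Nr4a1, Btg2 and Sik1 were lower, and Egr1, at 0.803, lay between. Ier2 lies between Cacna1a and Nacc1 in the RefSeq order.

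**Figure D3:**
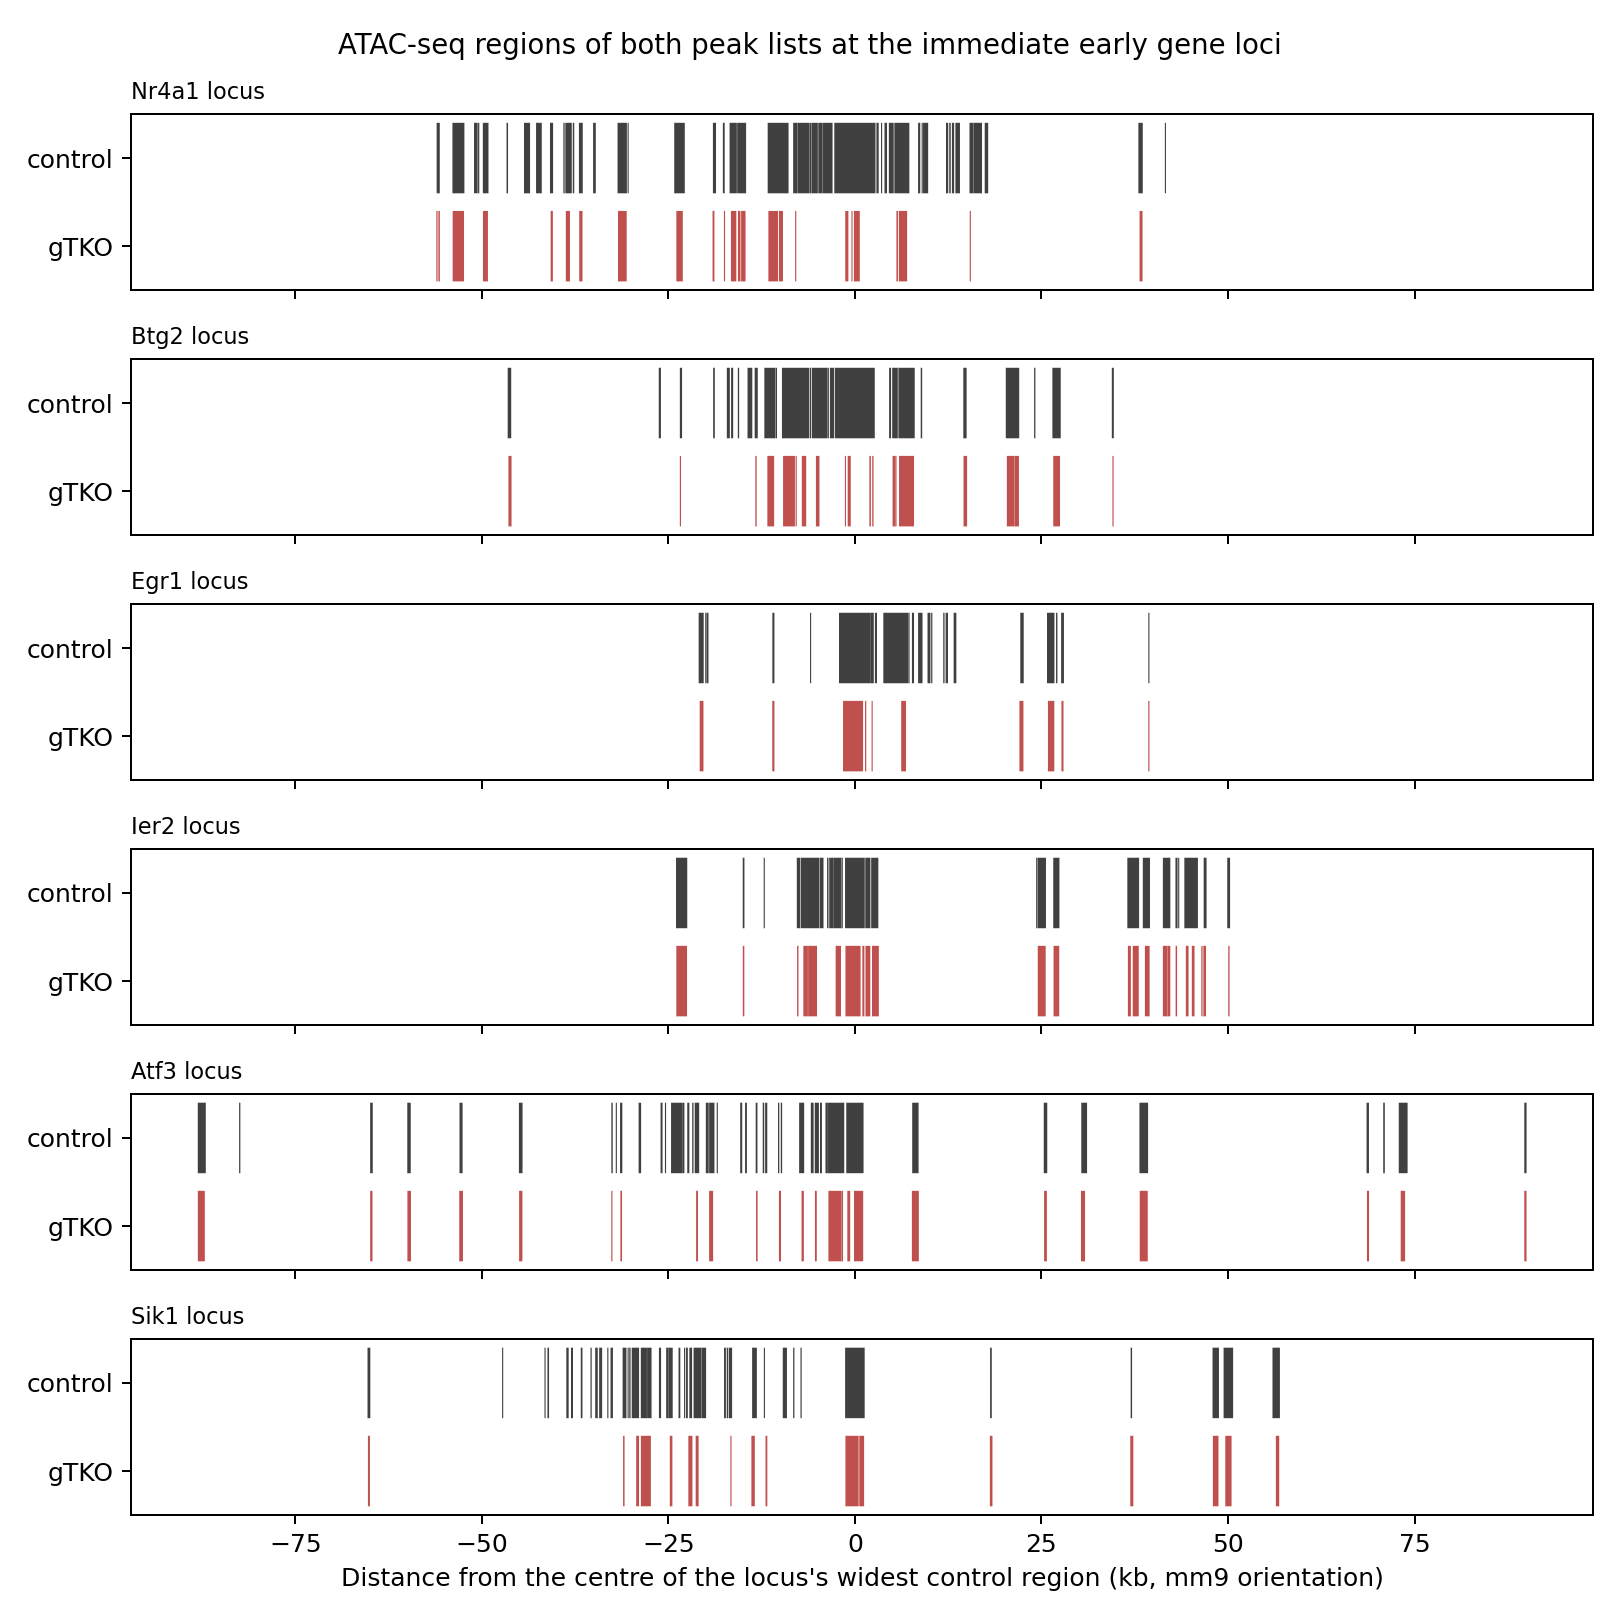
Regions of the control list (dark, upper row) and the gTKO list (red, lower row) at the 6 loci, drawn to scale against the distance in kb from the centre of the widest control region of each locus (horizontal axis). Since each map is centred on a control region, the upper row is filled at the centre by construction. The lower row is sparse there at Nr4a1 and Btg2, while at Ier2 both rows are similar.

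Across the 6 loci, 14 control regions were at least 2 kb wide, and gTKO regions covered 17.7 to 92.4% of their bases, with a median of 66.3%. The median over all 964 placed control regions of that width was 88.4% (quartiles 81.2 and 93.5%). In 4 of the 14 the gTKO regions covered at most 50%, against 2.90% of the 964. The 4 were the Nr4a1 region of 5523 bp, the Btg2 regions of 5331 and 2030 bp and the Egr1 region of 3336 bp. In the gTKO list, regions of at least 2 kb numbered 3 at the 6 loci, 1 each at Btg2, Egr1 and Ier2. A control region overlapped 2 or more gTKO regions in 18 of 201 cases, against 3021 of 57267 placed control regions (5.28%). Width was not matched in this comparison. The 6 loci held a larger share of control regions of at least 2 kb, 14 of 201 against 964 of 57267. Of the 18 that overlapped 2 or more gTKO regions, 5 were at Nr4a1, 5 at Ier2, 4 at Btg2, 2 at Atf3 and 1 each at Egr1 and Sik1.

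**Figure D4:**
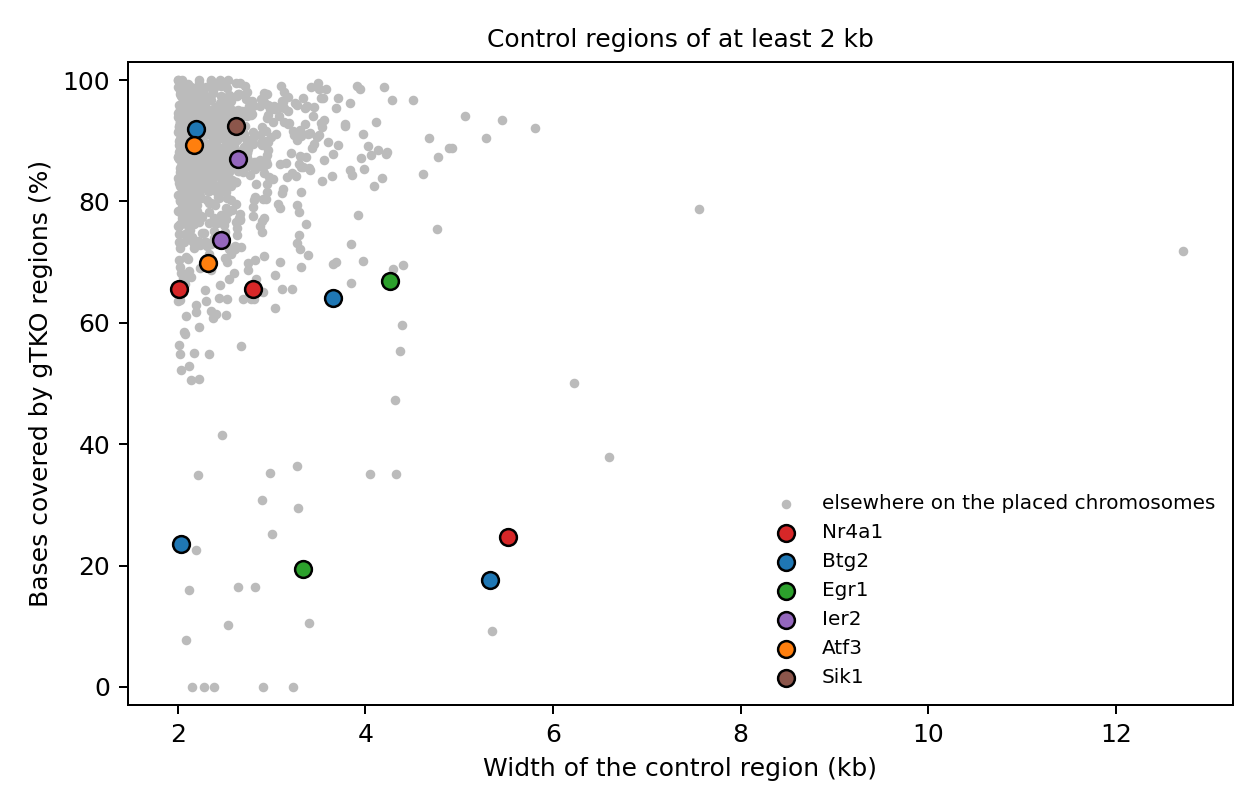
Share of each control region's bases covered by gTKO regions (vertical axis, %) against the width of the control region (horizontal axis, kb) for all placed control regions of at least 2 kb, with the 14 regions of the 6 loci in colour. Most grey points lie above 80%, while 4 coloured points, from Nr4a1, Btg2 and Egr1, lie below 25%.

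Inside closely packed stretches of control regions the ratio of gTKO to control bases was lower than in the rest of the windows, and stretches elsewhere in the genome also had low ratios. Control regions at gaps of at most 3 kb were chained, and chains of at least 10 regions were called stretches. This definition was chosen after the lists had been seen, and since it selects places where the control list is dense, the selection itself can lower the ratio inside, and the difference was not tested. The 6 loci held 7 of the 143 such stretches of the placed chromosomes, 2 at Nr4a1 and 1 at each other locus. Inside them the gTKO regions covered 39379 bp against 99248 bp of control regions, a ratio of 0.397. In the rest of the 6 windows they covered 27816 against 36225 bp, a ratio of 0.768, which was close to the 0.771 of the whole lists. The control-only share was 63.9% (92 of 144 regions) inside and 22.8% (13 of 57, interval 12.7 to 35.8%) outside. Over all 143 stretches the share was 51.7% (1345 of 2604 regions) and the ratio of summed bases 0.530.

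The central Nr4a1 stretch, from 101089078 to 101125971, held 27 control and 14 gTKO regions and had the lowest ratio of the 7, at 0.282. The Sik1 stretch, from 31951239 to 31985709, held 33 control and 9 gTKO regions (ratio 0.333), and 24 of the 33 had no partner. The Egr1 stretch, from 35018718 to 35034448, had a ratio of 0.341, the Btg2 stretch, from 135949872 to 135977884, one of 0.384, and the Atf3 stretch, from 192977066 to 193010864, one of 0.418. The left Nr4a1 stretch, from 101052054 to 101077789, had a ratio of 0.548 and the Ier2 stretch, from 87178546 to 87189474, one of 0.678. Of the 7 stretches, 5 had gTKO bases at or below 50% of the control bases, against 45.5% of all 143. The median ratio over the 143 was 0.548 (quartiles 0.367 and 0.763). Of all stretches, 18.2% had a lower ratio than the central Nr4a1 stretch and 67.1% a lower one than the Ier2 stretch. The 7 stretches thus lay within the range of stretches elsewhere.

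**Figure D5:**
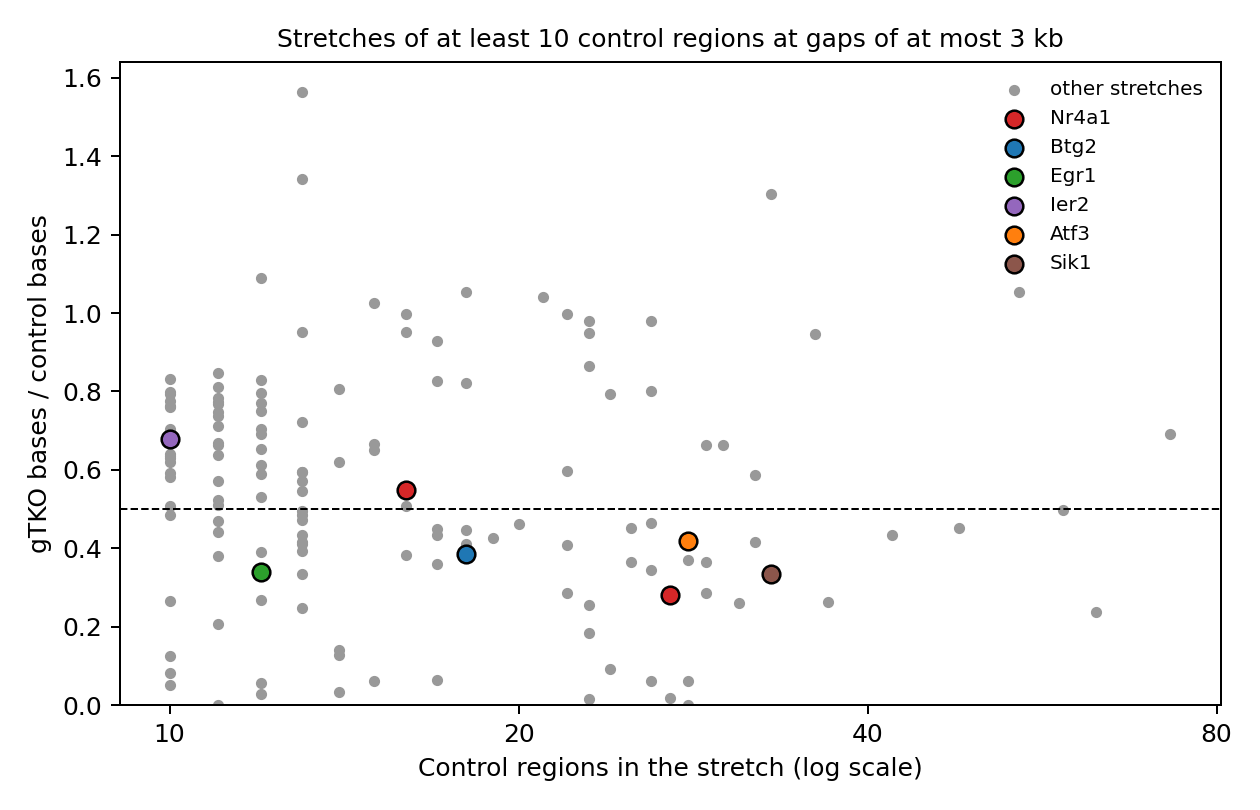
Ratio of gTKO to control bases (vertical axis) against the number of control regions (horizontal axis, log scale) for the 143 stretches, with the 7 of the 6 loci in colour and a dashed line at 0.5. The coloured points, from 0.282 to 0.678, lie among the grey ones, many of which are lower.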

How the data were processed

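Peak positions from ATAC-seq of sorted retinal endothelial cells were analysed, from 3 control and 3 gTKO libraries. The authors deposited 1 list per genotype with 3 columns (sequence name, start, end) and no score, p-value or summit. The submitters' processing notes name mm9 and, among tools for all assays, Bowtie2, MACS2, Picard and bedtools. The threshold, filters and any pooling of libraries were not given in the sources used here. No peak was under 150 bp. The 16 RNA-seq libraries are not analysed here, and marker genes were not located in the lists, so cell identity was not checked.

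Peaks on chromosomes 1 to 19, X and Y were kept, which left out 1044 of 58311 control and 620 of 50178 gTKO peaks. No peaks of a list overlapped or touched. Positions are printed counting from 1. A partner is a region of the other list that overlaps by at least 1 bp. Shares have exact Clopper-Pearson 95% intervals, and a count of 0 allows up to 3 counts of the total. Both cover counting error only. The overlap code was tested on simulated data, made by dropping, trimming and splitting control regions. The 6 windows, the named regions (in each window the widest control region with its gTKO regions, the widest gTKO region and the widest regions without a partner) and the list of other immediate early genes were chosen with earlier results of these data known. Other regions named were chosen after their values were seen. Python 3.11.15, numpy 2.4.6, pandas 2.3.3, scipy 1.17.1 and matplotlib 3.10.9 were used.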

Additional observations from a re-analysis of the deposited data

How the results depend on the processing

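The 0.771 of the whole lists belongs to the main setting and was not recomputed for the others, some of which also change the whole lists. The ratio of gTKO to control bases over the 6 loci, 0.496, lay between 0.460 and 0.542 in the 7 other settings. It was 0.501 without regions under 300 bp. Without the widest control region of each locus and the gTKO regions overlapping that region, the ratio was 0.494. It was 0.460 with windows narrowed to their central 50% and 0.537 with windows widened by 50 kb on each side. With the control list reduced to as many regions as the gTKO list it was 0.513, and without the Nr4a1 locus 0.542. With peaks assigned by any overlap with the window it was 0.496. Loci at or below 50% numbered 3 in the report and 3, 3, 4 and 2 in the first 4 of these settings. The 105 control-only regions became 35 when regions of at least 300 bp were counted, which leaves fewer regions to count, and 77 to 137 in the other 6 settings. The 2 gTKO regions without a partner became 54 when a partner had to cover at least 50% of both regions. These 54, and the 137 control regions under the same rule, include regions that overlap the other list by less. The number of gTKO regions was 0 with a partner within 200 bp and 0 among regions of at least 300 bp. It was 1 in the narrowed windows and 5 in the widened ones. In the dense stretches the ratio of 0.397 was 0.368 with gaps of at most 2 kb, 0.401 with gaps of at most 5 kb, 0.370 with at least 15 control regions and 0.397 with stretches chained from the merged regions of both lists. The settings for stretches and the one without Nr4a1 were chosen after seeing the data. No paired analysis was possible because the 3 libraries of a genotype share a list, and no library could be left out. Read depth is unknown, so how far it limits these counts was not tested.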
